A study of Mus with 2 samples.

Results

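Guanylin (Guca2a), uroguanylin (Guca2b) and their receptor guanylate cyclase C (Gucy2c) were followed through single-cell tables of the mouse distal ileum. The 3 genes were chosen by name, and all 3 were listed in each of the 5 cell type tables, out of 8970 genes with a symbol in at least 1 of them. The study sorted ileal epithelial cells and sequenced them with inDrops, a droplet method that barcodes the RNA of each cell. One sample came from mice of genotype Nav1.8Cre+/-DTA+/-, in which Cre driven by Nav1.8, a sodium channel of pain-sensing neurons (nociceptors), switches on diphtheria toxin A and kills the cells that express it. The other came from Nav1.8Cre-/-DTA+/- littermates, which carried the same toxin allele without Cre, and both were sampled at baseline. Each sample pooled 3 male mice of 8 weeks, so there was 1 sample per genotype and no test of genotype is possible.

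Guanylin and uroguanylin are small peptides that epithelial cells release into the gut lumen as the ends of longer prohormones. Both bind guanylate cyclase C in the apical membrane, which then makes cyclic GMP. Cyclic GMP acts through cyclic GMP-dependent protein kinase II to open the chloride channel Cftr and to restrain sodium uptake by the exchanger Slc9a3, so that salt and water enter the lumen. Heat-stable enterotoxins of Escherichia coli activate the same receptor.

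Guca2a lies on chromosome 4 from 119637732 to 119639465 and Guca2b on the same chromosome from 119656601 to 119658945 (mm10). They are neighbours, with 17135 bases and no other protein-coding gene between them. Gucy2c lies on chromosome 6 from 136697284 to 136781742 and spans 84459 bases. All 3 are annotated as protein-coding.

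Each cell type table compares a first with a second group of cells and does not say which genotype is which. They are called group 1 and group 2 throughout. Neither was given a genotype from its values, so no difference has a direction of nociceptor loss. The tables give the share of cells in which a gene was detected and a log2 fold change of group 1 over group 2. Most genes lay a little under 0: the median ran from -0.03 in enterocytes to -0.11 in tuft cells, with goblet (-0.04), enteroendocrine (-0.05) and stem cells (-0.07) between. The tables state neither depth nor cell numbers. The fold changes themselves show the grain of the smaller tables. For genes detected in group 1 only, the linear fold less 1 was a whole multiple of 0.0294 in enteroendocrine cells (41 genes) and of 0.0556 in tuft cells (1261 genes), for 100% of them within 0.01 of a whole number. For genes detected in group 2 only, the steps were 0.025 (204 genes) and 0.143 (1554 genes), again for 100%. Such steps arise when 1 is added to the mean of whole counts over 34 and 40 enteroendocrine cells, and over 18 and 7 tuft cells. On that scale the fold change of a weakly detected gene is understated. Such whole counts are not scaled to the depth of each cell. A difference in depth between the groups would then enter the fold changes, as it would the detection shares, and its part was not tested. No gene of the enterocyte, stem or goblet tables was at 0 in either group, so the scale could not be checked there.

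Some defining markers were detected in most of the cells they name, and others in fewer. The mucin Muc2 was detected in 97.4% (group 1) and 98.0% (group 2) of goblet cells per the authors' deposited table. The enteroendocrine granule protein Chga had 76.5% and 82.5% in its cells, and the tuft kinase Dclk1 88.9% and 85.7%, per the authors' deposited table. The stem cell markers Olfm4 and Lgr5 were lower, with 44.9% and 54.0%, and 21.1% and 29.9%, per the authors' deposited table. Lgr5 was also detected in 38.9% and 28.6% of tuft cells per the authors' deposited table. The alkaline phosphatase Alpi was detected in 38.1% and 27.5% of enterocytes per the authors' deposited table. Over all listed markers of a type, the median shares in its own cells were 92.3% and 85.4% for goblet and 66.65% and 64.25% for tuft markers. They were 66.45% and 59.4% for enterocyte, 39.7% and 43.75% for enteroendocrine, and 26.5% and 34.95% for stem and cycling markers. Of 32 markers of T cells, B cells, myeloid, stromal, endothelial and neural cells, 2 were listed in any sheet. A gene that a sheet does not list has no share here, which does not show that it was undetected. The count therefore does not show that such cells were absent.

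Guca2a was detected most often in goblet cells and Guca2b in enterocytes, in both groups. Gucy2c was detected most often in enteroendocrine cells in group 1, and about equally in tuft and enteroendocrine cells in group 2. In the authors' deposited table, Guca2a was detected in 94.9% (group 1) and 95.2% (group 2) of goblet cells. In enterocytes its shares were 79.3% and 69.5%, and in stem cells 39.7% and 43.4%, per the authors' deposited table. Enteroendocrine cells followed with 26.5% and 42.5%, and tuft cells with 27.8% and 28.6%, per the authors' deposited table. The goblet and enterocyte shares of Guca2a stood clear of each other and of the rest, while the shares in stem, enteroendocrine and tuft cells overlapped from one type to the next.

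Guca2b had a different order. It was detected in 81.3% (group 1) and 67.3% (group 2) of enterocytes per the authors' deposited table. Goblet cells came next with 53.3% and 52.0%, then stem cells with 39.7% and 35.2%, per the authors' deposited table. Enterocyte, goblet and stem shares did not overlap. In enteroendocrine cells the shares of Guca2b were 14.7% and 17.5% per the authors' deposited table, and in tuft cells they were 33.3% in group 1 and 0 in group 2. If group 2 held 7 tuft cells, as its step would have it, detection in 0 of 7 cells leaves a rough upper limit of 42.9% on the share. That limit is 3 divided by 7, an approximation that is coarse for so few cells and covers counting error only.

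Side by side, the hormones separated most in goblet cells, where Guca2a was detected in 41.6 percentage points more cells of group 1 and 43.2 more of group 2 than Guca2b. In enterocytes their shares differed by 2.0 points in favour of Guca2b in group 1 and by 2.2 in favour of Guca2a in group 2. Stem cells gave equal shares in group 1 and 8.2 points more for Guca2a in group 2.

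The receptor Gucy2c was detected in 47.1% (group 1) and 42.5% (group 2) of enteroendocrine cells per the authors' deposited table. Tuft cells had 27.8% and 42.9% per the authors' deposited table. In stem cells the shares were 17.5% and 22.4%, in enterocytes 18.7% and 20.2%, and in goblet cells 17.9% and 20.1%, per the authors' deposited table. The stem, enterocyte and goblet shares of the receptor overlapped, and the lowest enteroendocrine and tuft shares lay above all of them. The enteroendocrine and tuft ranges overlapped each other. If the groups held 18 and 7 tuft cells, as the steps would have it, the tuft shares rest on few cells. Whether the 27.8% of group 1 tuft cells differs from the 22.4% of stem cells was not tested. The part of depth, which may differ between cell types, was not tested either. Within its own sheet, Gucy2c was detected more often than 93.1% of listed genes in enteroendocrine cells and 89.4% in tuft cells. It stood near the middle in enterocytes (54.9%), stem cells (54.1%) and goblet cells (54.1%). The sheets list different numbers of genes, from 3426 to 6765, so these places are not on 1 scale.

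**Figure D1:**
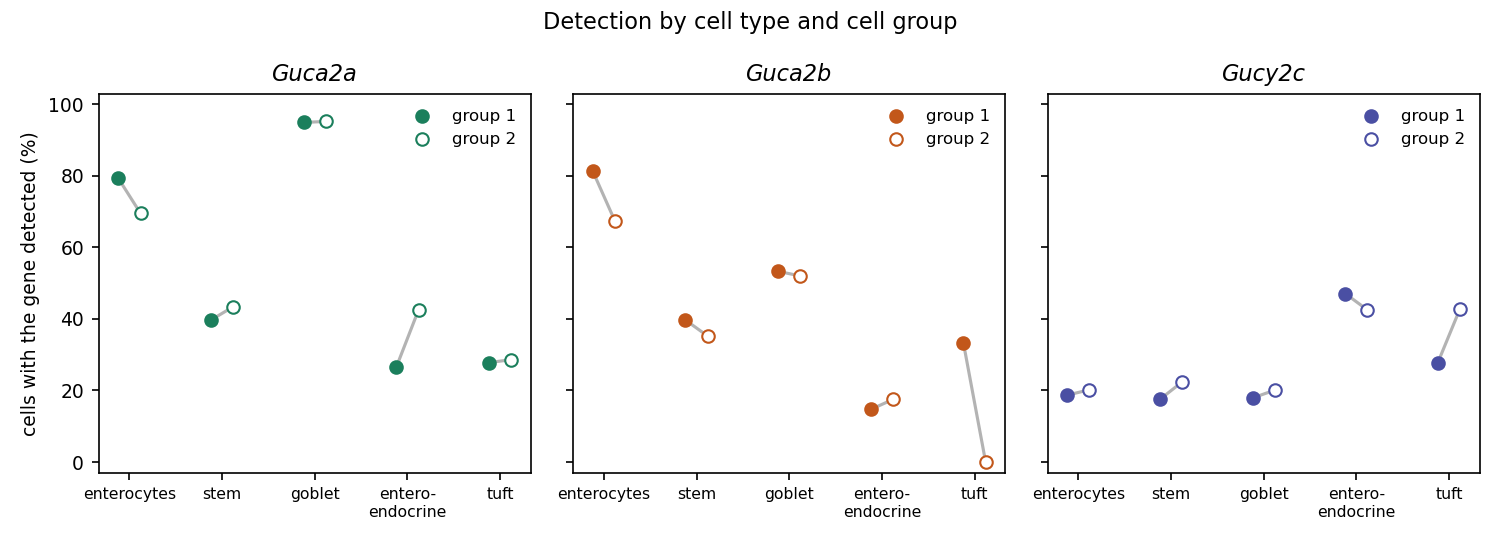
Share of cells with each gene detected (percent, vertical axis) by cell type (horizontal axis), with filled points for group 1 and open points for group 2, each 1 group of cells from 1 pooled sample with no error bar. Guca2a is highest in goblet cells at about 95%, and Guca2b in enterocytes at 81.3% and 67.3%. Gucy2c is at 47.1% and 42.5% in enteroendocrine cells, the highest in group 1, and at 42.9% in group 2 tuft cells.

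RNA set free from other cells can put a gene into droplets whose cell does not express it, and its part in these shares was not tested. Tuft cells, which do not make gel-forming mucus, had Muc2 detected in 22.2% and 28.6% of cells and the ileal bile acid binding protein Fabp6 in 100% of both groups per the authors' deposited table. Of 13 goblet markers, 10 were listed in tuft cells with a median share of 25% and 21.4% in groups 1 and 2, and 3 of them (Ccl6, Spdef and Tpsg1) were at 0 in group 1. In enteroendocrine cells 8 goblet markers had median shares of 39.8% and 38.8%, and 14 of 20 enterocyte markers had 33.9% and 37.5%. The shares of Guca2a and Guca2b in tuft and enteroendocrine cells lay within the range of these markers. Whether those cells express the hormones was not tested, and the shares are not read as expression. The ranges were 0 to 71.4% for goblet and 0 to 100% for enterocyte markers in tuft cells, and 0 to 87.5% and 8.8% to 100% in enteroendocrine cells. Such ranges hold nearly any share, so they cannot decide this. The 19 enterocyte markers listed in tuft cells had medians of 22.2% and 28.6%, and 5 of them were at 0 in a group, as Guca2b was. Stem cells likewise had goblet markers at medians of 34.0% and 52.8% and enterocyte markers at 47.8% and 49.9%, beside 39.7% and 43.4% for Guca2a and 39.7% and 35.2% for Guca2b. In goblet cells the enterocyte markers had medians of 46.2% and 44.9%, beside 53.3% and 52.0% for Guca2b. In enterocytes the goblet markers had medians of 32.1% and 45.6%, under the 79.3% and 69.5% of Guca2a, and the highest of them, Tff3, had 74.7% and 83.8% per the authors' deposited table.

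The cluster marker table pools both samples over 8 clusters. It listed Guca2a for a goblet-like cluster, Guca2b for an enterocyte-like cluster, and Gucy2c for an enteroendocrine-like and a tuft-like cluster. Its rows all had a log2 fold change of at least 0.25 and detection in at least 25% of the cluster. Clusters are formed from expression itself, so the rows describe them and are no test. The rows come from the same samples as the cell type sheets, so they are no independent evidence beside those shares. Guca2a was listed once, for cluster 4, with a log2 fold change of 2.41 over all other cells and detection in 94.5% inside and 61.8% outside, per the authors' deposited table. Cluster 4 was goblet-like: it listed all 13 goblet markers, and 7 of them were among its 10 genes of highest fold. Guca2a was itself the 10th of its 282 genes by fold, after Tff3, Zg16, Spink4, Fcgbp, Agr2, Muc2, Clca1, Defa24 and S100a6.

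Guca2b was listed once, for cluster 1, with a log2 fold change of 1.38 and detection in 90.1% inside against 46.1% outside, per the authors' deposited table. That cluster was enterocyte-like, with 16 of 20 enterocyte markers listed, and Guca2b was 6th of 240 genes by fold. Fabp2 and Apoa1, a fatty acid binding protein and an apolipoprotein, were 2nd and 3rd. Guca2a was not listed for cluster 1, nor Guca2b for cluster 4.

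Gucy2c was the only 1 of the 3 listed for 2 clusters. In the authors' deposited table its log2 fold change was 0.45 in cluster 6, with detection in 44.9% inside and 14.7% outside. In cluster 7 it was 0.37, with 32% inside and 14.9% outside, per the authors' deposited table. Cluster 6 was enteroendocrine-like (14 of 18 markers listed) and cluster 7 tuft-like (10 of 15). By fold the receptor stood 144th of 311 genes in cluster 6 and 183rd of 215 in cluster 7, so it was a modest marker of either. Detection of Gucy2c was 30.2 points higher inside cluster 6 and 17.1 points higher inside cluster 7. Cluster 7 also had Fabp1 among its 10 genes of highest fold, with detection in 48% inside and 2.2% outside, per the authors' deposited table. Fabp1 is on the enterocyte marker list, but these shares do not mark it as an enterocyte gene here.

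**Figure D2:**
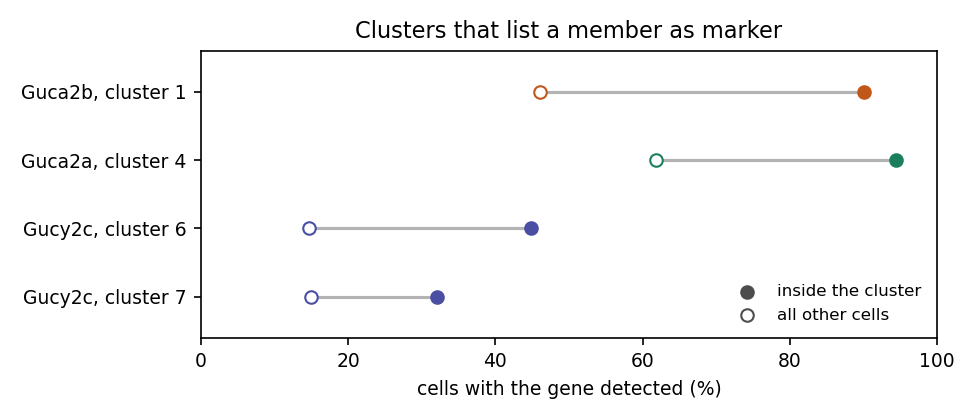
Share of cells with the gene detected (percent, horizontal axis) inside the cluster (filled) and in all other cells (open) for each of the 4 rows in which the marker table lists a member (vertical axis). Guca2a and Guca2b are detected in over 90% of cells of their cluster and in 61.8% and 46.1% of other cells, while Gucy2c reaches 44.9% in cluster 6 and 32% in cluster 7.

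Between the 2 cell groups, Guca2b had the largest fold change of the 3 in size in each of the 5 cell types, and it was higher in group 1 in 4 of them, tuft cells with their 0 included. By detection the order differed: Guca2a had the largest difference in enteroendocrine cells (16.0 points) and Gucy2c in stem cells (4.9) and goblet cells (2.2). In enterocytes, with the shares of 81.3% and 67.3% given above, its value was 0.42 on the log2 scale per the authors' deposited table, a ratio of 1.34. Only 2 of the 3426 enterocyte genes had a higher fold change, and 1 gene had a larger gain in detection than its 14 percentage points. The 2 genes above it were Apoa1 and 2010109I03Rik, and the next below were Crip1 and Cdhr2, a brush border cadherin. In stem cells its log2 value was 0.18 per the authors' deposited table, with 3 of 5403 genes higher. In goblet cells it was 0.24 per the authors' deposited table, with 35 of 4537 genes higher, while detection differed by 1.3 points. The direction turned in enteroendocrine cells, where Guca2b was at -0.11 per the authors' deposited table, at percentile 31.6 of the sheet. The same value was shared there by 10 other genes, and the sheet holds 716 distinct fold changes over 5287 genes.

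For tuft cells the log2 value of Guca2b was 0.96 per the authors' deposited table, the 10th highest of 6765 genes. It was listed at 0 in group 2, so no ratio is given. The fold change corresponds to a mean of 0.944 counts per cell in group 1, if the step stands for 1 count in 1 of 18 cells. A 0 in a group was common in this sheet, at 2815 of 6765 genes.

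For Guca2a the values lay closer to the rest of each sheet. Its log2 value was 0.18 in enterocytes per the authors' deposited table, with detection higher by 9.8 points, and 23 genes were higher. In goblet cells, where nearly every cell had it, it was at 0.01 per the authors' deposited table. Stem cells gave -0.04, enteroendocrine cells -0.08 and tuft cells 0.12 per the authors' deposited table. In enteroendocrine cells the fold change of -0.08 stood beside a detection 16.0 points lower in group 1, and in tuft cells the fold change was above 0 with detection 0.8 points lower. These values lay between percentiles 43.6 and 76.2 of their sheets, apart from enterocytes at 99.3. Its nearest genes by rank there were Cgref1 above it and the mitochondrial mt-Rnr2 below it.

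The difference between the fold changes of Guca2b and Guca2a was close in 3 sheets: 0.24 in enterocytes, 0.22 in stem cells and 0.23 in goblet cells. It was -0.04 in enteroendocrine cells and 0.84 in tuft cells. By fold change Guca2b was thus the higher of the pair in 4 of 5 cell types. The closeness did not hold for log2 ratios of detection shares. For Guca2b and Guca2a these were 0.27 and 0.19 in enterocytes, 0.17 and -0.13 in stem cells, and 0.036 and -0.0046 in goblet cells. The sheets come from the same 2 samples, so the cell types are not replicates of each other.

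Gucy2c, the receptor, stood near the centre of the sheets except in tuft cells. On the log2 scale it was at -0.04 in both enterocytes and goblet cells, at -0.08 in stem cells and at 0.01 in enteroendocrine cells per the authors' deposited table. These were percentiles 44.7, 49.0, 42.1 and 67.1 among all genes. If the enterocyte sheet is on the scale found in the smaller sheets, a complete loss of a gene with 1 count in each of 20.2% of cells would read -0.27, so the fold changes leave little room to show a difference in this gene. Detection shares, which do not carry that scale, differed by 1.5 points in enterocytes, 4.9 in stem cells and 2.2 in goblet cells, lower in group 1 each time. Genes in general were also detected less often in group 1, in 72.3%, 91.8% and 71.4% of cases in these sheets.

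In tuft cells Gucy2c was at -0.30 per the authors' deposited table, with 27.8% of group 1 and 42.9% of group 2 cells. At 18 and 7 tuft cells, these shares rest on few cells. The log2 value of Gucy2c was shared by 14 other genes and 1161 genes were lower. Measured from the median of tuft genes with a share of 50% or more in each group, the value was 0.012 and no longer under 0. From the like median of each other sheet, Gucy2c was above 0 there too (0.10 in stem cells and 0.057 in goblet cells), so the sign of the receptor's difference depends on the zero point. Guca2b kept its sign in all 5 sheets, and Guca2a changed sign in stem cells (to 0.14).

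Set against all genes, the count of members past a fold of 0.25 was 1 of 3 at or above it in enterocytes (Guca2b), where 0.204% of all genes were, and 0 of 3 at or below -0.25, where 1.55% were. In stem cells it was 0 of 3 in either direction, against 0.0185% higher and 4.39% lower. In goblet cells it was also 0 of 3 in either direction, against 0.617% and 2.76%, with Guca2b at 0.24 just short of the limit. Enteroendocrine cells had 0 of 3 in either direction against 2.23% and 6.47%. In tuft cells Guca2b was past the limit on the higher side (1 of 3, against 6.59%) and Gucy2c on the lower side (1 of 3, against 22.4%). Only in enterocytes did a member pass a limit that few other genes of its sheet passed, and with a limit of 0.5 Guca2b did not pass there.

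Detection gave a similar picture. Members detected at least 10 percentage points more often in group 1 were 1 of 3 in enterocytes (Guca2b, against 0.292% of all genes), 0 of 3 in stem cells (against 0%), 0 of 3 in goblet cells (against 0.397%), 0 of 3 in enteroendocrine cells (against 6.6%) and 1 of 3 in tuft cells (Guca2b, against 22.7%). Members detected at least 10 points less often were 0 of 3 in enterocytes (against 0.73%), stem cells (against 9.2%) and goblet cells (against 5.42%). They were 1 of 3 in enteroendocrine cells (Guca2a, against 22.6%) and 1 of 3 in tuft cells (Gucy2c, against 42.7%).

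**Figure D3:**
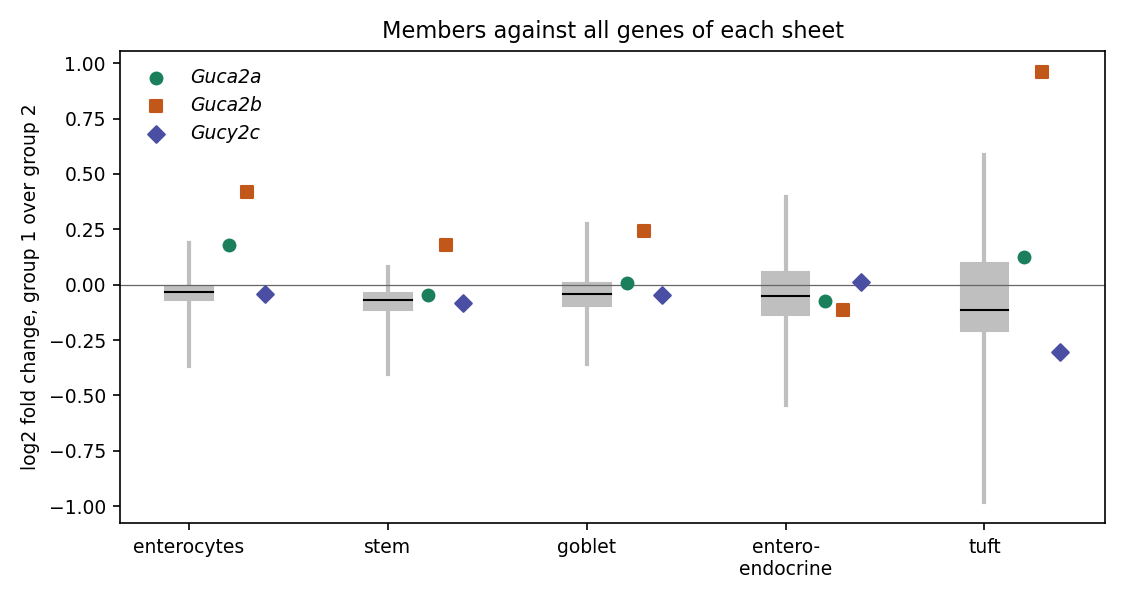
Log2 fold change of group 1 over group 2 (vertical axis) by cell type (horizontal axis) for the 3 members, beside all genes of the sheet, with the grey box from percentile 25 to 75, the grey line from percentile 0.5 to 99.5 and a black bar at the median. Guca2b lies above the grey line in enterocytes (0.42), stem cells (0.18) and tuft cells (0.96), while Gucy2c lies near the median in every cell type but tuft cells (-0.30).

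Markers of enterocytes lay on the same side as Guca2b in each sheet. Above the sheet's median lay 17 of 18 listed markers in enterocytes, 10 of 13 among stem cells, 15 of 15 among goblet cells and 15 of 19 among tuft cells, and Guca2b was above it each time. In enteroendocrine cells 4 of 14 markers were above, with a list median of -0.15, and Guca2b was at -0.11 there. The list medians ranged from 0.04 (stem cells) through 0.10 (enterocytes) and 0.14 (goblet cells) to 0.22 (tuft cells). Guca2b exceeded 17 of 18 enterocyte markers in enterocytes, all but Apoa1 (0.50 per the authors' deposited table). In stem cells it exceeded 11 of 13, in goblet cells 10 of 15 and in tuft cells 16 of 19. The markers listed in tuft cells include Fabp1 (0.72 per the authors' deposited table), which was detected more often inside the tuft-like cluster than outside it. The median detection share of the markers was 66.5% in group 1 and 59.4% in group 2 of enterocytes, 47.8% and 49.9% in stem cells, and 46.2% and 44.9% in goblet cells. The part of enterocyte RNA, or of more mature cells, in the Guca2b values was not tested.

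Guca2a was set beside both marker lists. The median of the goblet markers was -0.18 in enterocytes, where all 7 listed markers were below Guca2a, and -0.20 in stem cells, where 6 of 7 were. In goblet cells it was -0.06 with 9 of 13 below Guca2a, in tuft cells -0.19 with 8 of 10 below, and in enteroendocrine cells -0.01 with 3 of 8 below. Against the enterocyte markers its place was lower in all sheets but that of enteroendocrine cells. Below Guca2a were 13 of 18 in enterocytes, 4 of 13 in stem cells, 0 of 15 in goblet cells and 7 of 19 in tuft cells. In enteroendocrine cells its place was higher than among the goblet markers, with 9 of 14 below. Within goblet cells Clca1 was the highest goblet marker at 0.43 and Agr2 the lowest at -0.39 per the authors' deposited table.

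**Figure D4:**
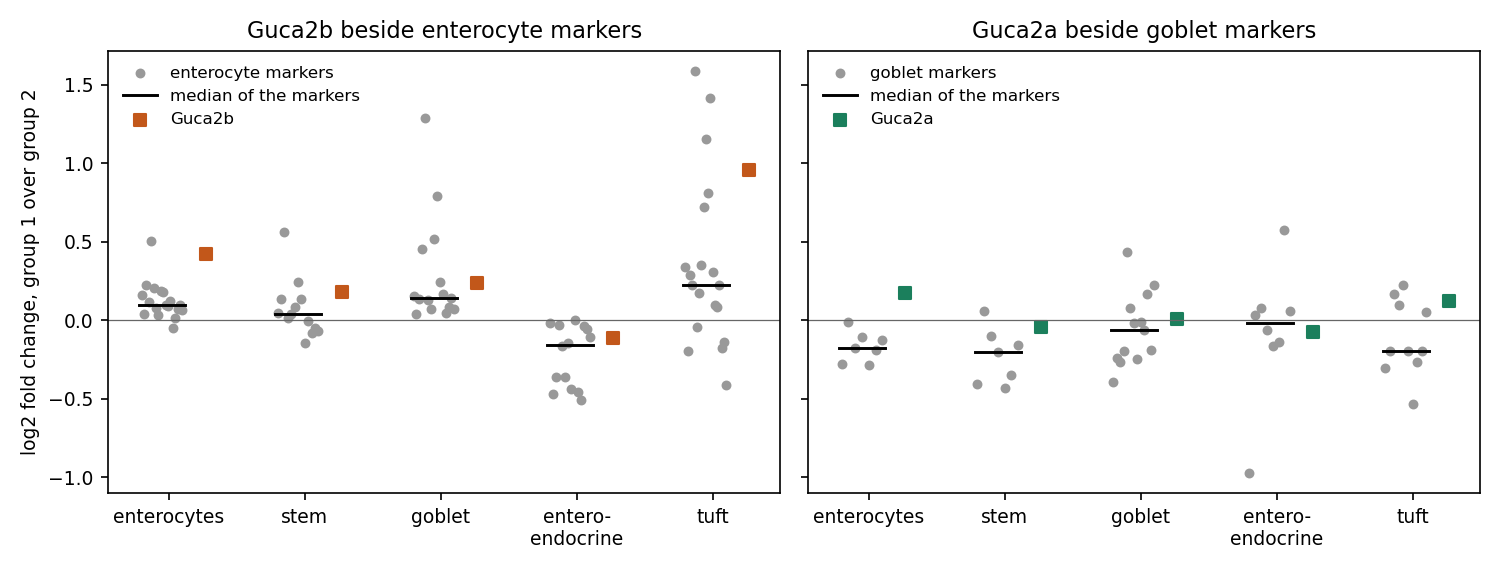
Log2 fold change of group 1 over group 2 (vertical axis) by cell type (horizontal axis), with each listed marker as a grey point, the median of the markers as a black bar and the member as a coloured square. Guca2b is above the enterocyte marker median in all 5 cell types, and Guca2a is above the goblet marker median in 4 of them.

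Genes whose levels change along the villus gave further context in enterocytes. Of 9 genes known from the upper villus, 7 were above the median of all genes, with Creb3l3 at 0.13 and Fos at -0.11 the largest on either side per the authors' deposited table. Of 8 genes known from the lower villus, 0 were above it, and their median was -0.30. The largest of these were the lectins Reg3g (-0.82) and Reg3b (-0.66) per the authors' deposited table. In stem cells 4 of 7 upper and 3 of 8 lower villus genes were above the median, and in goblet cells 7 of 9 and 2 of 6. Tuft cells had 6 of 10 and 0 of 8, where 5 of the 8 lower villus genes were below the median and the rest at it. Enteroendocrine cells had 2 of 7 and 4 of 5. The tables do not give the position of cells along the villus.

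The list of genes that act with guanylate cyclase C held 25 genes of cyclic GMP signalling and of salt transport, of which 19 were listed in at least 1 sheet, 7 in all of them, and 6 are not analysed here. In enterocytes 9 of 13 exceeded the sheet's median and 0 passed the fold of 0.25 in either direction. Slc9a3r1, a scaffold that ties the sodium exchanger and Cftr to the membrane skeleton, was the largest at 0.12, with detection in 82.1% and 73.5% of cells per the authors' deposited table. The potassium channel subunit Kcnq1 was at -0.08 and the chloride and bicarbonate exchanger Slc26a3 at -0.07 per the authors' deposited table. The list median was -0.01, against -0.03 for all genes.

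In stem cells 10 of 16 of these genes were above the median and 0 passed the fold. The largest per the authors' deposited table were the cyclic AMP phosphodiesterase Pde4d (-0.22), the sodium, potassium and chloride cotransporter Slc12a2 (-0.16) and the channel subunit Kcne3 (-0.10). Cftr, named here for its role with its values known, was detected in 19.0% (group 1) and 22.4% (group 2) of stem cells, at -0.05 per the authors' deposited table, and the only other sheet that listed it was that of tuft cells. In goblet cells 7 of 9 were above the median and 0 passed the fold. Slc9a3r1 was again the largest there at 0.24, with 55.4% and 44.9% of cells, followed by Slc12a2 at -0.17 and the exchanger Slc26a6 at 0.14, per the authors' deposited table.

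In both enteroendocrine and tuft cells most of the list lay below the sheet's median. In enteroendocrine cells 2 of 11 genes were above it and 3 were at or below -0.25, where 6.47% of all genes were. Prkg1, cyclic GMP-dependent protein kinase I, was at -0.63 with shares of 29.4% and 70.0% in groups 1 and 2 per the authors' deposited table. Pde4d was at -0.31 with 64.7% and 70.0% per the authors' deposited table. Prkg2, the kinase through which guanylate cyclase C acts on ion transport, was at -0.25 with 2.9% and 20%, and was listed in this sheet alone, per the authors' deposited table. At 34 and 40 cells, the 2.9% of group 1 is about 1 step of this sheet. The sheet lists 245 genes at 0 in a group, so a gene can be listed through the other group alone. Prkg2 may be listed through its share in group 2, and its negative value is then no support for a difference. In tuft cells 3 of 11 were above the median and 3 were at or below -0.25, a limit that 22.4% of all tuft genes passed. These were the sodium exchanger Slc9a2 (-0.44), Pde4d (-0.43) and the actin-bundling villin Vil1 (-0.41) per the authors' deposited table. The list median in tuft cells was -0.21, under the -0.11 of all genes. Tuft genes with a share of 50% or more in each group had a median of -0.32, so the side on which the list lies depends on the zero point.

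**Figure D5:**
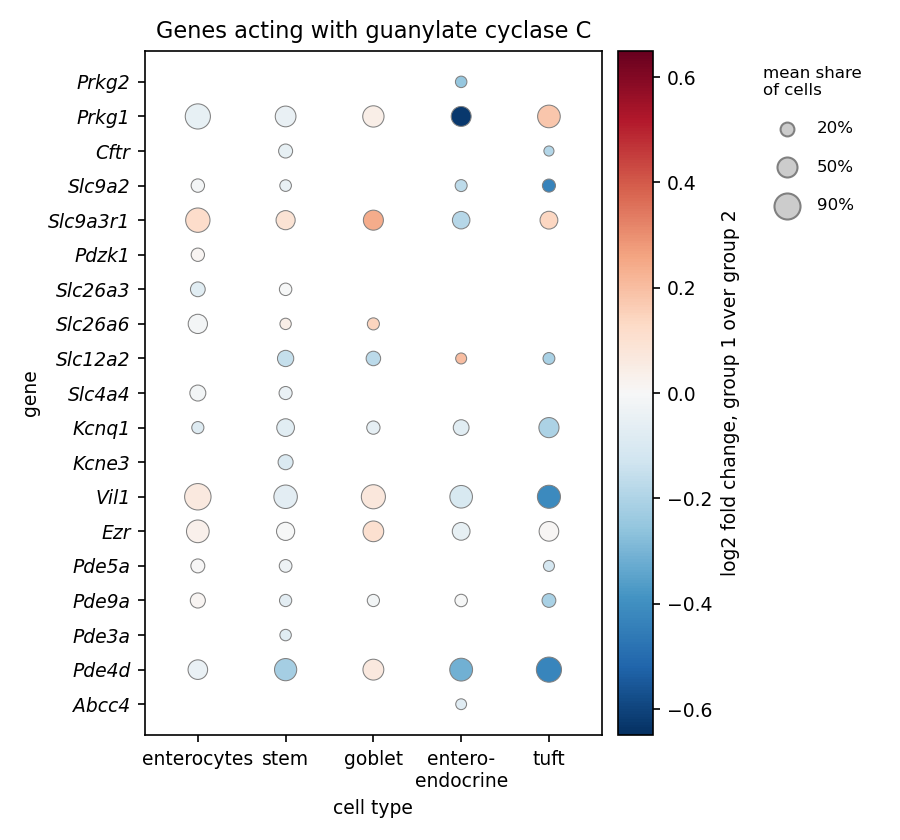
Log2 fold change of group 1 over group 2 (colour) and mean share of cells with the gene detected (area of the point) for the 19 listed genes acting with guanylate cyclase C (vertical axis) by cell type (horizontal axis), with no point where a sheet does not list the gene. Slc9a3r1 is the highest in enterocytes (0.12), stem cells and goblet cells (0.24), and Prkg1 is the lowest in enteroendocrine cells (-0.63).

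A further list held 16 transcription factors of these genes or of the cells that make them. Cdx2 is known to bind the promoter of human GUCY2C, and hepatocyte nuclear factors act on genes of mature enterocytes. In enterocytes 2 of 7 listed factors were above the median of all genes, in stem cells 2 of 9 and in goblet cells 2 of 11. Cdx2 was at -0.19 in enterocytes, with 17.6% and 26.7% of cells, and at -0.29 in stem cells, with 30.6% and 46.0%, per the authors' deposited table. Its relative Cdx1 was at -0.16 in enterocytes, -0.23 in stem cells and -0.27 in goblet cells per the authors' deposited table. The goblet cell factor Spdef was at -0.25 in goblet cells per the authors' deposited table. In enteroendocrine cells 5 of 10 were above the median, with Gata6 at -0.21 and Klf5 at -0.13 per the authors' deposited table. In tuft cells 7 of 11 were above, with Cdx2 at -1.04 (11.1% and 42.9% of cells) and Gata5 at 0.22 (16.7% and 0) per the authors' deposited table. At 18 and 7 tuft cells, these shares rest on few cells. Of 17 further genes of cyclic GMP and natriuretic peptide signalling, the nitric oxide synthase Nos2 was the only 1 listed, at 0.15 in enterocytes with 46.7% and 37.1% of cells per the authors' deposited table.

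Across the 10 detection shares (5 cell types and 2 groups), the genes of most like pattern differed between the 3 members. Likeness was the mean absolute difference in share over 2470 genes that all sheets listed, and it describes these 2 samples only. Nearest to Guca2a were 4933405D12Rik (7.92 percentage points), Pls1 (11.7), Clec2h (11.8), Muc2 (12.3) and Fcgbp (13.0). The list holds a goblet mucin and a goblet mucus protein beside the brush border bundling protein Pls1. Nearest to Guca2b were Iqgap2 (6.72), Cndp2 (8.08), Rfk (8.79), Dgat1 (10.1), which makes triglycerides, and the brush border protease Mep1b (11). Nearest to Gucy2c were Zfp622 (4.85), Grcc10 (5.53), Carmil1 (5.87), Gm18728 (6.09) and Prkce (6.40). Each of these had lower shares than Gucy2c in both groups of enteroendocrine cells. Zfp622 had 11.8% and 35% there, against 47.1% and 42.5% for Gucy2c, per the authors' deposited table. Guca2b was 20th in order of likeness to Guca2a and Guca2a 88th in likeness to Guca2b, at the same 16.8 points, and Gucy2c differed from Guca2a by 34.0 points and from Guca2b by 31.8. By Pearson's r over the same 10 shares, 1 of the 5 genes stayed among the nearest 5 for each member: 4933405D12Rik for Guca2a (0.97), Iqgap2 for Guca2b (0.97) and Carmil1 for Gucy2c (0.95). The other genes named for Gucy2c had an r of 0.79 (Grcc10), 0.74 (Prkce), 0.43 (Zfp622) and 0.36 (Gm18728).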

How the data were processed

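Nothing was aligned or counted here: the values are those of the authors' tables. Cell Ranger, Seurat, DESeq2 1.30.1 and the build mm10 are named in the submitters' processing notes, without the column each made. The sources used here do not give how cells were filtered, doublets treated or cell types assigned. Per the file headers, the deposited tables hold a log2 fold change between 2 sets of cells, the fraction of cells with the gene detected (printed as a percent) and p-values. The authors' deposited p-values were not used, since with 1 pool of mice per genotype they cannot measure the spread between animals. The deposited library sheet gives 10000 planned cells in 4 sub-libraries for the control and 8500 in 3 for the other genotype. Sub-libraries are not replicates, and 0 columns of per-sample values were left out.

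Percentiles, counts past a fold of 0.25 or 10 percentage points, list medians and likeness of shares were computed with Python 3.11.15 and pandas 2.3.3, and the scripts were tested on simulated data. No test of genotype was run. Between 7 and 20 rows of each sheet had no symbol and were kept out of the likeness only. Genes were named by rule: the 3 members; effectors past the fold or, where fewer than 3 were, the 3 largest; the 2 largest of each other list described; the 5 genes most like each member; and the 2 genes on either side of a member where its rank is described. Markers named as a check of a cell type or beside a share, and Cftr, were chosen with their values known. The lists come from textbook knowledge, and the members and lists were chosen with earlier results of these data known. Coordinates are from RefSeq on GRCm38.p6, the assembly of mm10. Alternatives were another zero point for fold changes, ratios of detection shares, detection filters, other fold limits, list means and other measures of likeness.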

Additional observations from a re-analysis of the deposited data

How the results depend on the processing

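Measured from the median of all genes of the sheet, 12 of the 15 log2 fold changes of the members moved by 0.1 or less, and the other 3, all in tuft cells, became 0.24 for Guca2a, 1.07 for Guca2b and -0.19 for Gucy2c. Measured from the median of genes with a share of 50% or more in each group, 6 moved by 0.1 or less. The others became 0.14 in stem cells, 0.11 in goblet cells and 0.44 in tuft cells for Guca2a, and 0.36, 0.34 and 1.27 in the same cells for Guca2b. For Gucy2c they became 0.10 in stem cells, 0.057 in goblet cells and 0.012 in tuft cells, all with a change of sign (from -0.30 in tuft cells), as in stem cells for Guca2a. The log2 ratio of detection shares gave -0.68 (enteroendocrine cells) and -0.041 (tuft cells) for Guca2a, and 0.27 (enterocytes), 0.036 (goblet cells) and -0.25 (enteroendocrine cells) for Guca2b. For Gucy2c it gave -0.36 (stem cells), -0.63 (tuft cells), -0.17 (goblet cells) and, in enteroendocrine cells, 0.15, while 5 values moved by 0.1 or less. It could not be computed for Guca2b in tuft cells, listed at 0. The cause of these moves was not tested.

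A fold of 0.2 in place of 0.25 raised the number of genes past it from 60 to 114 in enterocytes, 238 to 458 in stem cells, 153 to 311 in goblet cells and 460 to 856 in enteroendocrine cells, and put Guca2b in goblet cells past it. A fold of 0.5 gave 11, 9, 11, 40 and, from 1961 in tuft cells, 542, and left Guca2b in enterocytes (0.42) and Gucy2c in tuft cells (-0.30) short of it. Percentiles moved by over 10 in 5 of 15 cases with a filter at median detection and in 3 of 15 among genes of like detection, none of them for Guca2b. Of list medians, 6 of 38 moved by over 0.1 when the mean was used and 9 of 38 with the detection filter. With group 1 alone, 3, 2 and 1 of the 5 most like genes stayed for Guca2a, Guca2b and Gucy2c, and with group 2 alone 5, 4 and 2 did. No paired analysis was possible because each genotype has 1 sample. The tables give no depth, so what it limits could not be measured.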

Other observations

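Other protein-coding genes beside the members had low shares where a sheet listed them, and no share is known where it did not. Foxj3, a forkhead factor 8612 bases below Guca2a, was listed in enteroendocrine cells alone, at 0.20 with 14.7% of group 1 and 2.5% of group 2 per the authors' deposited table. Hivep3, a zinc finger factor above Guca2b, was listed in stem cells at -0.08 (9.1% and 14.9% of cells), in enteroendocrine cells at -0.06 and in tuft cells at -0.19 per the authors' deposited table. Neither was listed in enterocytes or goblet cells, where both hormones were detected in over 50% of cells. Plbd1, 34980 bases below Gucy2c, was at 0.01 in enterocytes (14.9% and 14.7% of cells) and at -0.02 in stem cells per the authors' deposited table.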
